A study of Mus musculus with 6 samples.

Results

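The TAM family consists of the receptor tyrosine kinases *Tyro3*, *Axl* and *Mertk*, and its main ligands are *Gas6* and *Pros1*, the gene of protein S. The 5 genes were represented by 8 of the 45077 probe sets on the array, selected as every probe set whose gene symbol entry names one of them. *Axl*, *Tyro3* and *Gas6* had 2 probe sets each, *Mertk* and *Pros1* had 1, and all 8 entries name a single gene. Each probe set combines several short probes against the same transcript, and the whole array carries 22527 gene symbols.

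Cerebral cortex of male mice was compared in 3 groups of 2 mice each on Affymetrix Mouse Genome 430 PM array strips. SAMP8, an inbred strain with accelerated senescence, was given sugarcane top ethanolic extract (STEE) by mouth at 20 mg/kg over 30 days, continued through 8 further days of behavioral testing (STEE-fed SAMP8), or an equal volume of water (SAMP8 control). SAMR1, a related strain that is resistant to accelerated senescence, was given water. The labels give an age of 16 weeks for all groups and do not say whether it holds at the start or at tissue collection. The study's methods name SAMP8 mice of this age ahead of acclimatization, administration and testing, which places it at the start. All groups went through the Morris water maze, and the study's animals were given BrdU, a label of dividing cells, with their drinking water for part of the administration period. SAMP8 and SAMR1 differ across their genomes and not at a single locus, and the RNA came from whole cortical tissue. In such tissue, fewer cells of a type and less RNA per cell cannot be told apart.

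The values are the authors' group means on the log2 scale, kept to 2 decimals, after robust multichip analysis (RMA), and no value of a single mouse was used. A mean carries no spread between mice, so that every difference here is a description without a test, and the small number of arrays limits its precision. A difference of at least 0.2 on the log2 scale, or 1.15-fold, in either direction was counted. The middle of the array lay at a log2 signal of 4.16 (SAMR1) or 4.15 (SAMP8 control and STEE-fed SAMP8). Where 3 values follow each other below, they stand for SAMR1, SAMP8 control and STEE-fed SAMP8 in this order, the first pair gives the strain difference and the last pair the difference with STEE. Markers of the labelled tissue were present, with median log2 signals of 10.14 to 10.16 for 8 neuron markers and 8.89 to 9.03 for 10 astrocyte markers across the groups.

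TAM receptors do not bind dying cells directly. *Gas6* and protein S carry a domain that binds phosphatidylserine, a lipid that apoptotic cells, and synapses marked for removal, expose on their surface, and the other end of the ligand engages the receptor. *Gas6* binds all TAM receptors, whereas protein S binds Tyro3 and Mertk. In brain, Mertk takes part in engulfment by microglia and astrocytes, Axl is known as a receptor of activated microglia, and Tyro3 is mainly a neuronal receptor.

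The promoters of the receptor genes are shown because the receptors differed from each other in the size of their difference with STEE. Each window runs from 250 bases before to 50 bases after the gene start and is written 5′ to 3′ along the gene. The sequences are RefSeq entries on GRCm38.p6, the genome of the reference strain C57BL/6J and not of SAMP8 or SAMR1. Capitals mark the GC box, GGGCGG or CCGCCC, searched on both strands and including overlapping matches.

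Mertk, chr2:128698665-128698964, plus strand: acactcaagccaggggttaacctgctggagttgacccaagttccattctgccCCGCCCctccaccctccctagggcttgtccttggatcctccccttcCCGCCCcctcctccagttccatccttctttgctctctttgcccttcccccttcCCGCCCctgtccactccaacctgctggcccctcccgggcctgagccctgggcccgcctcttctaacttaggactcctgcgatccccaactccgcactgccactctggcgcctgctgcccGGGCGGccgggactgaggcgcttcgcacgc
Axl, chr7:25788684-25788983, minus strand: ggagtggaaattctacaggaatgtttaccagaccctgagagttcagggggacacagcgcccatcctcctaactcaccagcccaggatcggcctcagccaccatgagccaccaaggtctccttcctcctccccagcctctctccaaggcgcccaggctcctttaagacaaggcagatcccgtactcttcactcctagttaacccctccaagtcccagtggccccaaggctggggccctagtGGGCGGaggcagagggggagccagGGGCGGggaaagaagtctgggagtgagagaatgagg
Tyro3, chr2:119799264-119799563, plus strand: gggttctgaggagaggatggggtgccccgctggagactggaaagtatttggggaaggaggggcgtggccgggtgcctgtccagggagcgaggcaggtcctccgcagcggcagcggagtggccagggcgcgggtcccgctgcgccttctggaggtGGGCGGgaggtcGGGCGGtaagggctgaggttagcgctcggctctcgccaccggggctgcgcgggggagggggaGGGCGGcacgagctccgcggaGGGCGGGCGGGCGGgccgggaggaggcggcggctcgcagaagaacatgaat

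The window of *Mertk* held 4 GC boxes, that of *Axl* 2 and that of *Tyro3* 6, of which the last 3 overlapped. The ligand genes, whose windows are not printed, held 4 (*Gas6*) and 5 (*Pros1*). Of 32851 promoter windows of 300 bases in the table, 35.7% held at least 1 GC box, 10.7% at least 3 and 2.71% at least 5. The *Mertk* window was 66.0% G or C with 14 CpG dinucleotides, the *Axl* window 60.3% with 6 and the *Tyro3* window 73.3% with 31, against medians of 52.7% and 7 over all windows. None of the 5 windows held TATAAA or its complement TTTATA, which 13.6% of all windows did. A match of letters is a description of the window only.

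*Mertk* was the receptor with the largest difference with STEE. At its probe set, 1422869_PM_at, the group means were 6.18 (SAMR1), 6.32 (SAMP8 control) and 6.69 (STEE-fed SAMP8). SAMP8 control thus exceeded SAMR1 by 0.14, and STEE-fed SAMP8 exceeded its control by 0.37 on the log2 scale, or 1.29-fold. With STEE, 236 of the 45077 probe sets (0.524%) lay at least as far from 0 as *Mertk*, and among probe sets with a mean signal at or above the median of the array the share was 0.913%. The strain difference of *Mertk* was matched or exceeded in size by 25.9% of all probe sets. The study picked *Mertk* for display by its response to STEE on these same arrays, so its value is not independent evidence of a response, and with 1 probe set no other measurement of the gene on the array stands beside it.

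*Axl*, whose product is bound by Gas6 and not by protein S, had group means of 6.0, 5.84 and 5.90 at 1423586_PM_at. SAMP8 control was lower than SAMR1 by 0.16 there (log2 difference -0.16), and the difference with STEE was 0.06. The second *Axl* probe set, 1438621_PM_x_at, stood at 2.87, 2.91 and 2.95 in the same order, differences of 0.04 and 0.04. A lower signal was found for only 14.9% of the array, and the x in its name marks probes that can also match other transcripts. The sign of the strain difference of *Axl* thus depended on the probe set, and both probe sets were higher with STEE by less than the threshold.

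*Tyro3* had group means of 6.71, 6.94 and 7.03 at 1425248_PM_a_at. The second probe set, 1425249_PM_a_at, read 6.19, 6.36 and 6.38. SAMP8 control was higher than SAMR1 at both, by 0.23 (1.17-fold) and 0.17, of which only the former passed the threshold. With STEE the differences were 0.09 and 0.02. The order of the groups was the same at both probe sets, with SAMR1 lowest and STEE-fed SAMP8 highest, and most of the distance lay between the strains.

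Among the ligands, *Gas6* had group means of 7.16, 6.96 and 7.09 at 1417399_PM_at. SAMP8 control was lower than SAMR1 by exactly the threshold (log2 difference -0.20), and the difference with STEE was 0.13. Centring each group on its median over all probe sets took the strain difference of *Gas6* to -0.19, short of the threshold. The second probe set, 1459585_PM_at, was nearly level at 4.31, 4.32 and 4.34, so that the strain difference of *Gas6* rested on 1 of 2 probe sets.

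*Pros1*, measured by the single probe set 1426246_PM_at, had group means of 3.83, 3.70 and 3.78, differences of -0.13 between the strains and 0.08 with STEE. Its signal was below the median of the array in all groups. Protein S in blood is made largely in the liver, which a cortical sample does not measure.

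**Figure D1:**
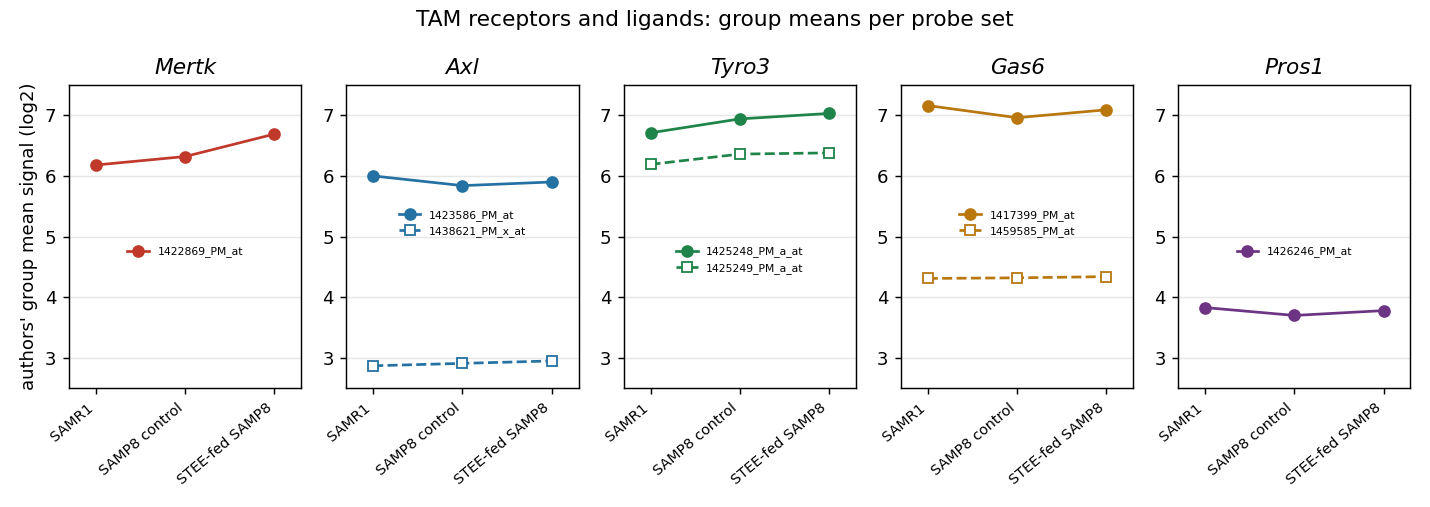
Authors' group mean log2 signal (y axis) of each TAM receptor and ligand in SAMR1, SAMP8 control and STEE-fed SAMP8 (x axis), with filled circles for the probe set of highest mean signal and open squares for the second one. Lines join the means of a probe set and no error is drawn because the values are means without a spread; *Mertk* goes from 6.18 to 6.32 to 6.69, and heights of different probe sets are not comparable as levels.

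Across the family, 1 of the 8 probe sets (*Tyro3*) exceeded 0.2 upward between the strains, with SAMP8 control above SAMR1, and 1 (*Gas6*) reached it downward, against 6.73% and 6.93% of all probe sets. The median difference was 0.025 over the 8 probe sets and 0.00 over the array, and the median absolute difference was 0.15 against 0.07. Just short of the threshold lay *Tyro3* at its second probe set (0.17) and *Axl* (-0.16). Read as 1 probe set a gene, *Mertk* and *Tyro3* were higher in SAMP8 control and *Axl*, *Gas6* and *Pros1* were lower, so that the receptors did not share a direction between the strains while both ligands did.

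With STEE, 1 of the 8 probe sets, that of *Mertk*, was higher by at least 0.2, against 3.15% of all probe sets, and 0 were lower by that much, against 2.91%. The nearest member below the threshold was *Gas6* at 0.13. All 8 probe sets were higher with STEE by some amount, from 0.02 to 0.37, as were 47.3% of the array. Among all probe sets with a mean signal at or above the median of the array, 54.0% were higher by some amount. By at least 0.2, 4.84% of these were higher and 3.34% lower. The median of the 8 was 0.07 against 0.00 over the array. Of the 8, 4 lay at or below 0.06, the median absolute difference of all probe sets. The 8 values come from the same arrays and 6 of them share a gene in pairs, so that they are not independent of each other.

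**Figure D2:**
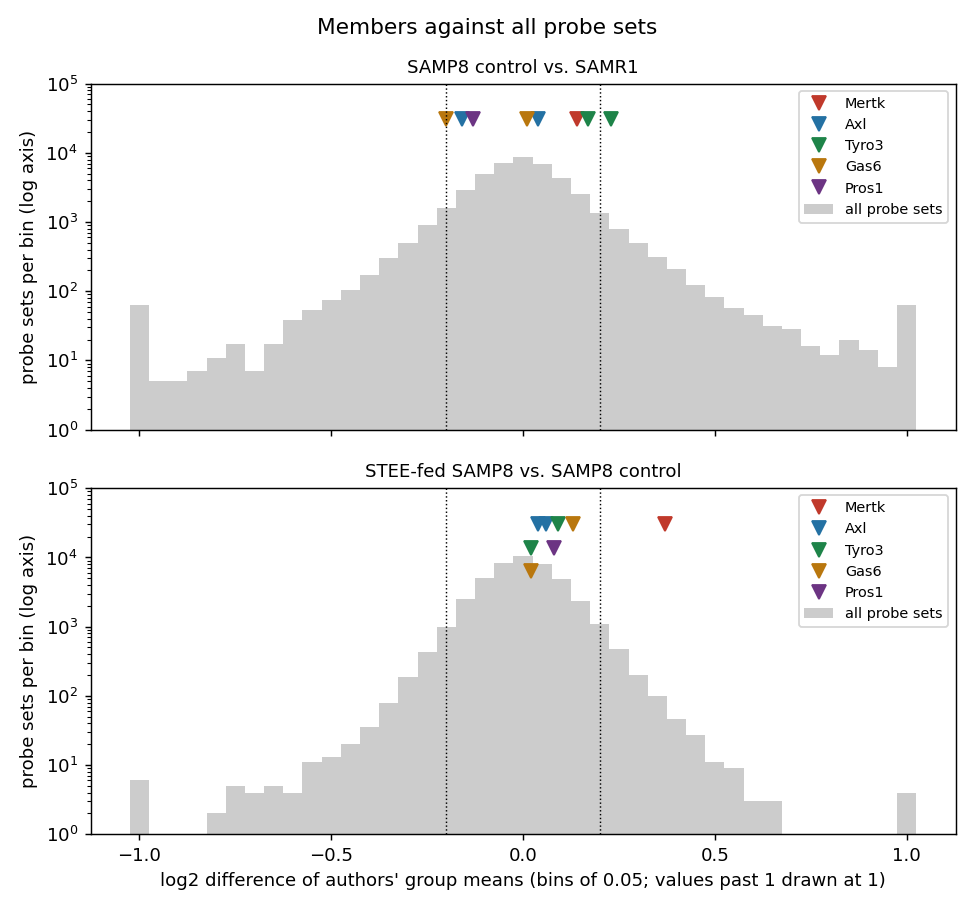
Number of probe sets on a log axis (y) by log2 difference of the authors' group means in bins of 0.05 (x), for SAMP8 control vs. SAMR1 and STEE-fed SAMP8 vs. SAMP8 control, with all probe sets in grey and the 8 of the TAM family as triangles whose height has no meaning. Dotted lines mark a difference of 0.2; with STEE only *Mertk*, at 0.37, lies past them.

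Both comparisons use the same SAMP8 control mean, with opposite signs. *Axl* at its brighter probe set, *Gas6* at its brighter probe set and *Pros1* had their lowest mean in SAMP8 control, whereas *Mertk* and both *Tyro3* probe sets went in steps from SAMR1 through SAMP8 control to STEE-fed SAMP8. STEE-fed SAMP8 and SAMR1 do not share a mean. Set against SAMR1, *Mertk* was higher in STEE-fed SAMP8 by 0.51 on the log2 scale, or 1.42-fold, a size reached by 1.46% of all probe sets, and *Tyro3* was higher by 0.32 and 0.19. The remaining 5 probe sets differed by between -0.10 and 0.08. In this comparison 2 of 8 probe sets were higher by at least 0.2 and 0 were lower, against 8.22% and 6.84% of the array. At a mean signal at or above the median of the array, these shares were 14.1% and 9.37%.

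The gap between probe sets of a gene gives a scale for these differences, although it is not the spread between mice. For 5284 genes with exactly 2 probe sets, the log2 differences of the 2 lay a median of 0.10 apart between the strains and 0.08 apart with STEE, and 10% of the genes had gaps of at least 0.27 and 0.21. The gaps between the strains were 0.20 for *Axl*, 0.06 for *Tyro3* and 0.21 for *Gas6*, and with STEE they were 0.02, 0.07 and 0.11. The signs of the 2 probe sets were opposite in 39.8% of the 5284 genes between the strains and in 39.3% with STEE. The strain differences of *Axl* and *Gas6* were thus no larger than the gaps between their own probe sets, and that of *Tyro3* was larger than its gap at both probe sets.

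Other genes of the pathway were read at the probe set of highest mean signal. Over all 22527 genes read in this way, 6.44% were higher and 6.14% lower in SAMP8 control by at least 0.2 when set against SAMR1, and 3.05% were higher and 2.67% lower with STEE. Among other proteins described as TAM ligands, 0 of 3 passed 0.2 in either comparison. *Tub* stood at 7.60, 7.59 and 7.63, while *Tulp1* and *Lgals3*, the gene of galectin-3, differed by -0.07 and -0.09 with STEE. *Tulp1* and *Lgals3* lay under the median of the array in every group.

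Gas6 and protein S bind phosphatidylserine only after vitamin K-dependent carboxylation. Of 3 genes of that cycle, *Vkorc1l1*, which encodes an enzyme that recycles vitamin K, read 6.38, 6.77 and 6.65, a strain difference of 0.39. *Ggcx*, the carboxylase itself, and *Vkorc1* differed by 0.00 and -0.03 between the strains and by 0.09 and 0.02 with STEE. The signal of *Ggcx* was low, at 2.94, 2.94 and 3.03, under the median of the array. The metalloproteases *Adam10* and *Adam17*, which release TAM receptors from the cell surface, differed by 0.07 and -0.08 with STEE and by 0.00 and 0.08 between the strains. Over the 4 *Adam10* probe sets the strain difference ran from -0.02 to 0.23.

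Downstream of the receptors, 0 of 13 signalling genes passed 0.2 between the strains at the brightest probe set and 1 did with STEE. That gene was *Ptk2*, the gene of focal adhesion kinase, with group means of 7.46, 7.58 and 7.82 and a difference of 0.24 with STEE. Over the 4 *Ptk2* probe sets the difference with STEE ran from -0.09 to 0.24 and averaged 0.08. Between the strains, the probe sets of *Pik3r1* ran from -0.01 at the brightest to 0.23, with a mean of 0.16. Those of *Ifnar1* ran from -0.21 to -0.02, with a mean of -0.12. The adaptor *Grb2* differed by 0.13 with STEE, the PI3K subunits *Pik3r1* and *Pik3ca* by 0.11 and 0.06, and *Akt1* by 0.04. For *Socs1* and *Socs3*, inhibitors of cytokine signalling, the differences were 0.02 and -0.02, and *Socs3* lay under the median of the array in every group. Over the 3 *Socs3* probe sets the difference with STEE ran from -0.22 to -0.02 and averaged -0.11. The median of the list was 0.02 with STEE, against 0.00 over all genes.

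Nuclear receptors of the LXR and PPAR families regulate *Mertk* and other genes of apoptotic cell clearance. *Nr1h2* and *Nr1h3*, the LXR genes, differed by 0.14 and -0.14 with STEE, in opposite directions. Their partner *Rxra* differed by -0.01 at its brightest probe set and *Pparg* by 0.07. Over the 3 *Rxra* probe sets the difference with STEE ran from -0.01 to 0.23 and averaged 0.11. *Ppard* was lower with STEE by 0.22 (log2 difference -0.22) at a probe set whose entry also names 1810013A23Rik, and 1 of its 3 probe sets was higher, by 0.03. Between the strains 0 of the 5 genes passed 0.2, with differences from 0.03 to 0.17. *Nr1h3*, *Pparg* and *Ppard* lay under the median of the array in every group.

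Of 17 other genes of engulfment, 1 was higher and 2 were lower by at least 0.2 between the strains. *Elmo1* and *Dock1*, which act together to activate the engulfment GTPase Rac1, differed in opposite directions, by 0.32 and -0.38, and *Abca1*, a lipid exporter, differed by -0.22. Each of the 3 had another probe set that did not share this difference, with values up to 0.34 for *Abca1*, down to -0.13 for *Elmo1* and 0.00 for *Dock1*. Other probe sets of *Jmjd6*, *Crk* and *Rac1* reached strain differences of 0.38, 0.36 and 0.25, and those of *Itgb5* and *Itgav* 0.20 and -0.24. With STEE, *Jmjd6* was lower (-0.24, with -0.24 to -0.03 over its 3 probe sets) and 0 genes were higher by 0.2 at the brightest probe set. At other probe sets, *Abca1* and *Rac1* were down to -0.25 and -0.21 with STEE and *Elmo1* up to 0.20. *Megf10*, an engulfment receptor of astrocytes, differed by -0.01 with STEE, and *Mfge8*, which bridges phosphatidylserine to integrins, by -0.03. The integrin genes *Itgav* and *Itgb5* differed by -0.08 and -0.05, and *Lrp1* by 0.04. The list had a median of -0.01 with STEE, so that the difference of *Mertk* was not shared by the list as a whole.

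**Figure D3:**
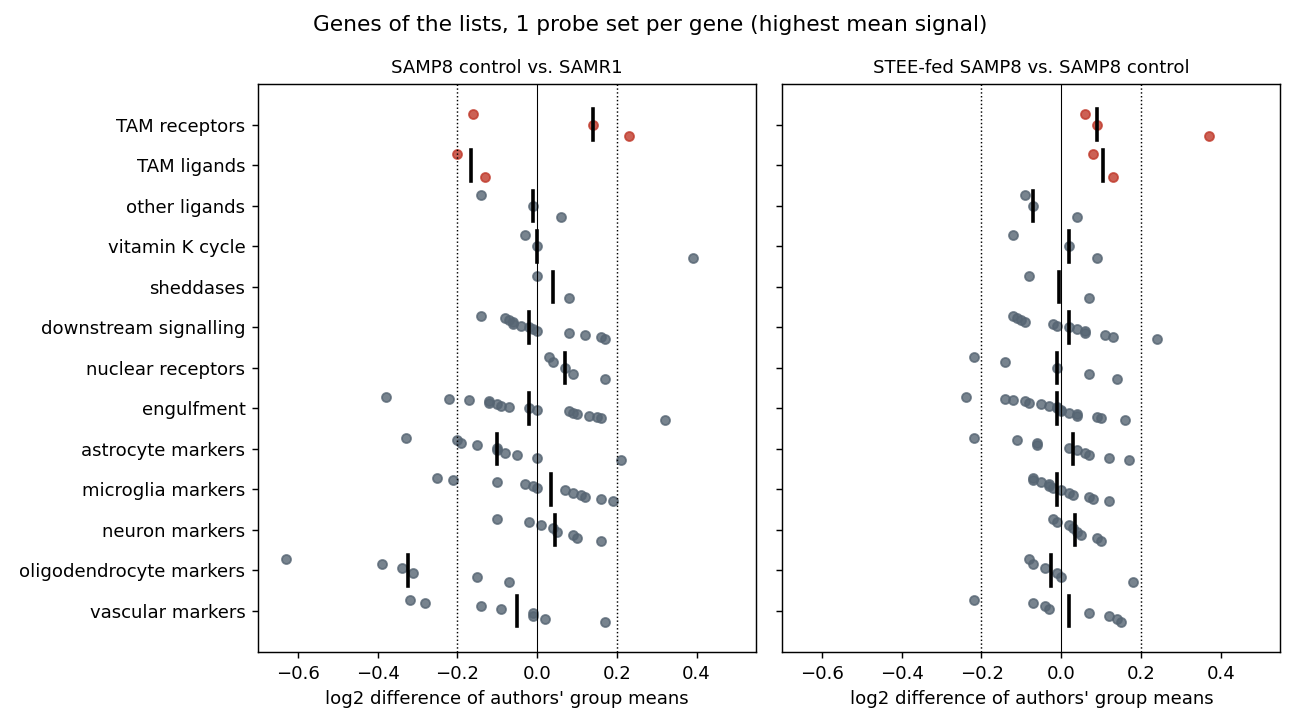
Log2 difference of the authors' group means (x axis) for each gene of the lists (rows), 1 probe set per gene, for SAMP8 control vs. SAMR1 on the left and STEE-fed SAMP8 vs. SAMP8 control on the right. Points are genes (TAM receptors and ligands in red), black bars are list medians and dotted lines mark 0.2; choroid plexus and red blood cell lists are not drawn. On the right, *Mertk* at 0.37 lies farthest from 0 among the points drawn.

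Markers of the cell types that carry the receptors were set beside these values. Of 12 microglia markers, 0 passed 0.2 with STEE, and their differences ran from -0.07 to 0.12 with a median of -0.01. *P2ry12* read 6.89, 6.96 and 6.91, *Cx3cr1* 7.03, 6.93 and 6.90, and *Tmem119* 4.71, 4.70 and 4.72, in the order given above. The summed linear signal of the list was 1750, 1610 and 1590. Between the strains *Csf1r*, the receptor for a survival factor of microglia, differed by -0.21 in SAMP8 control (-0.18 as the mean over its 3 probe sets), and *C1qc* by 0.16. With STEE another probe set of the complement gene *C1qb* differed by 0.33, against 0.12 at its brightest.

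Of 10 astrocyte markers read at the brightest probe set, *Gfap* passed 0.2 with STEE, lower by 0.22 (log2 difference -0.22), and its strain difference was 0.21. Averaged over its 3 probe sets, *Gfap* was short of 0.2 in both comparisons, at -0.11 with STEE and 0.15 between the strains. *Fgfr3*, a growth factor receptor, differed with STEE by 0.12 at its brighter probe set and by 0.39 at the other, a difference as large as that of *Mertk*, with a mean of 0.26. *Gja1* and *Fgfr3* differed by -0.20 and -0.33 between the strains. At least 1 probe set of *Gja1* was higher, by up to 0.61, the second *Fgfr3* probe set differed by -0.04, and the means over probe sets were -0.04 and -0.18. The probe sets of *Aldh1l1* differed with STEE by 0.17 and -0.19, in opposite directions. *Aqp4* differed by -0.11 and *Slc1a3* by 0.06, and the median of the list was 0.03. The summed linear signal of the list was 10400, 9820 and 10000. Of 8 neuron markers read at the brightest probe set, 0 passed 0.2 in either comparison. Between the strains, however, the probe sets of *Camk2a* ran from -0.57 to 0.01 and those of *Map2* from -0.26 to -0.10. Their means over probe sets were -0.11 and -0.16.

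Markers of other tissue parts differed between the strains. Of 6 oligodendrocyte markers read at the brightest probe set, all had a negative strain difference and 0 passed 0.2 with STEE. Between the strains 4 passed it, *Mog*, *Mag*, *Mobp* and *Cnp*, from -0.31 to -0.63. The strain difference of *Mbp* was -0.15 there and -0.35 as the mean over its 8 probe sets. With STEE the probe sets ran from -0.15 to 0.30 for *Mbp* and from -0.20 to 0.21 for *Mobp*, with means of -0.03 and 0.03. Among 8 vascular markers, *Cldn5* and *Pdgfrb* differed by -0.28 and -0.32 between the strains. *Rgs5* went the other way at other probe sets, with -0.01 at its brightest, up to 1.11 and a mean of 0.54 over 4. With STEE *Tek* differed by -0.22, at a signal under the median of the array in every group. The *Flt1* probe sets ran from -0.25 to 0.14 with STEE. The choroid plexus gene *Ttr* stood at 10.20, 8.24 and 9.33 and *Kcnj13* at 3.68, 3.25 and 3.47, lowest in SAMP8 control as were *Pros1* and the brighter probe sets of *Gas6* and *Axl*. *Kcnj13*, like *Kl* and *Folr1*, lay under the median of the array in every group. *Kl* read 3.15, 3.17 and 3.17, *Folr1* 3.64, 3.60 and 3.51, and *Clic6*, which lay above that median, 5.25, 5.07 and 5.08, so that *Kl* and *Folr1* were not lowest in SAMP8 control. The summed linear signal of the 5 genes was 1250, 367 and 709, and *Ttr* made up most of it in every group. The 3 red blood cell markers differed by between -0.08 and 0.08. The part of these markers in the values of the TAM family was not tested.

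The probe sets whose pair of differences came closest to that of *Mertk* were those of *Zbtb16*, 9130024F11Rik, *Nt5e*, *Zdhhc17* and *Mrpl9*, at distances of 0.010 to 0.036 on the log2 scale. Likeness was the straight-line distance in the 2 differences, that is over 3 group means, among 20085 single-gene probe sets with a signal at or above the median of the array. Within 0.05 of *Mertk* lay 6 of them, and 14 were higher than *Mertk* or equal to it in both differences. *Zbtb16*, a transcription factor gene, read 5.16, 5.30 and 5.66, and its 3 probe sets differed by 0.36 to 0.47 with STEE. *Nt5e*, *Zdhhc17* and *Mrpl9* each had another probe set that was lower with STEE.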

How the data were processed

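Per the methods and labels, RNA of cerebral cortex was biotinylated with a 3′ IVT kit and hybridized to Affymetrix Mouse Genome 430 PM array strips, 2 mice in each of 3 groups. Probe intensities were summarised by the authors with RMA (Affymetrix Expression Console), and groups were compared with Transcriptome Analysis Console. The authors deposited 2 tables of 45077 probe sets with the mean log2 signal of each group, named a bi-weight average and rounded to 2 decimals, and with linear fold changes, ANOVA p-values and FDR p-values of their own comparisons, which were not used here. The SAMP8 control means were equal in both tables for all probe sets, so that the 3 means could be set side by side. The genome build of the annotation is not given in the sources used here.

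Differences of the log2 means were computed with Python 3.11.15, pandas 2.3.3 and numpy 2.4.6 and drawn with matplotlib 3.10.9. The counting was tested on simulated data. Symbol entries were split where they name several genes, and 5694 probe sets without a symbol counted only among all probe sets. No model was fitted, because means without values of single mice allow none.

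Named are all probe sets of the members and, for the other lists, genes past 0.2 and up to 4 others in list order, each at its probe set of highest mean signal, with further genes (*C1qc* and some engulfment genes among them) chosen after their values were seen. *Adgrb1* was matched through its older symbol Bai1. The members and lists were chosen with earlier results of these data known, and STEE-fed SAMP8 vs. SAMR1 was added after seeing the data. Alternatives were the thresholds 0.1, 0.3 and 0.5, a filter on signal, centring, entries with a single symbol, the mean over a gene's probe sets and the control mean of the other table. Individual values of some listed marker genes are not reported here.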

Additional observations from a re-analysis of the deposited data

How the results depend on the processing

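The number of the 8 probe sets past the threshold followed the threshold. Between the strains it was 2 at 0.2, 6 at 0.1, 0 at 0.3 and 0 at 0.5, and centring each group on its median left 1. With STEE it was 1 at 0.2, 2 at 0.1 and 0 at 0.5, and *Mertk* was still past 0.3. In STEE-fed SAMP8 vs. SAMR1 it was 2 at 0.2, 4 at 0.1 and 1 at 0.5, and centring each group on its median raised it to 3. A filter on signal and entries with a single symbol gave the same counts as reported, but neither setting tested them. All 8 entries name a single gene, so the latter removed none. The filter removed only *Pros1* and the second *Axl* probe set, which were short of 0.2 in every comparison. The mean over the probe sets of a gene took the strain difference of *Axl* to -0.06, of *Tyro3* to 0.20 and of *Gas6* to -0.10, and the difference with STEE of *Tyro3* to 0.06 and of *Gas6* to 0.08. For the TAM receptors and ligands, no sign of a gene's strain difference or difference with STEE turned under the alternatives tried. Control means were equal in both tables and centring used medians of 4.16, 4.15 and 4.15, so these settings were bound to keep the signs. *Mertk* and *Pros1* have 1 probe set, which the mean leaves as it is. At the second probe set alone, not among the alternatives, the strain difference was 0.04 for *Axl* and 0.01 for *Gas6*, a turned sign, and 0.17 for *Tyro3*. With STEE all 3 genes kept their sign there. With the mean over all probe sets, an alternative chosen after seeing the data, 6 of 26 gene list counts moved by over 1.5 times, all to lower counts, while the sign turned in 15 (strain) and 12 (STEE) of 95 listed genes outside the TAM family, among them *Aldh1l1*, *Itgb5*, *Lrp1*, *Socs1* and *Rxra* with STEE. With STEE, *Ptk2*, *Ppard*, *Jmjd6* and *Gfap* were then short of 0.2 and *Fgfr3* passed it at 0.26; between the strains 7 of 17 such genes no longer passed, namely *Elmo1*, *Dock1*, *Abca1*, *Gja1*, *Gfap*, *Fgfr3* and *Csf1r*, and 4 others did. Another probe set alone passed 0.2 between the strains in 17 of the 95 genes and with STEE in 11. No paired analysis was possible because only group means were used, and leaving out single mice was not run for the same reason. The cause of these shifts was not tested.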
